A study of Mus musculus with 6 samples.

Results

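The genes of 7 ligands of the epidermal growth factor (EGF) family and of 3 ErbB receptors were read from arrays of mouse uteri with and without epithelial Sox17. The ligands were Areg, Ereg, Hbegf, Btc, Tgfa, Egf and Epgn, and the receptors were Egfr, Erbb2 and Erbb3. They were chosen by name, with earlier results of these data known, and all 10 are described whether or not they changed. They are 10 of the 20145 genes that could be named on the array. The array reads them with 12 probes, 3 for Egfr and 1 for each other gene.

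EGF family ligands are made as proteins anchored in the cell membrane, are cut free by metalloproteases, and bind ErbB receptors on the same or neighbouring cells. Bound receptors pair, phosphorylate each other and switch on the RAS and MAP kinase cascade, which turns on immediate early genes. In the mouse uterus amphiregulin, the product of Areg, is known as a progesterone-responsive ligand of the luminal epithelium before implantation, and HB-EGF, the product of Hbegf, is known from the epithelium around the attaching blastocyst.

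RNA came from whole uteri at gestation day (GD) 3.5 of natural pregnancy, harvested without embryos from females mated at 8 to 10 weeks of age. The 3 Sox17f/f samples carry the floxed Sox17 allele without recombinase and are labelled WT. The 3 Sox17ed/ed samples carry the same floxed alleles and an iCre placed at the Ltf locus. Ltf-iCre acts in the uterine epithelium, and its recombination starts at puberty, so Sox17 outside that epithelium is not targeted. The labels number the samples within a genotype without stating in words that each came from a separate mouse, so the p-values measure the spread between these samples.

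Each sample was hybridized to 1 Agilent array in 1 colour, and values below are log2 signals after quantile normalization between the 6 arrays. Signals of different probes depend on the probe and are not compared with each other. A probe counted as detected on an array when the scanner software marked it well above background, and a gene was tested when a probe was detected on at least 3 of the 6 arrays. Between 56.8% and 65.7% of spots were well above background on an array, most of all in Sox17f/f sample 3. No spot was saturated. All 6 arrays shared 1 slide and 1 scan, but the genotypes occupied separate lines of the slide, so position and genotype cannot be told apart. Sox17 itself fell from 12.17 ± 0.09 in Sox17f/f to 9.72 ± 0.11 in Sox17ed/ed (SD, n = 3), a log2 fold change of -2.45 (limma adjusted p = 2.65e-05), and its other probe changed by -2.97. Against the label of whole uterus, all 6 markers of uterine epithelium, 5 of gland, 6 of stroma and 6 of smooth muscle were detected on enough arrays to be tested.

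Areg lies in a row of 4 EGF family genes on chromosome 5, in the order Epgn, Ereg, Areg and Btc. The 250 bases before the start of Areg are shown because Areg was the member that changed, and those of Epgn and Btc because these genes share its neighbourhood. The sequences are those of RefSeq on GRCm38.p6. Promoters of 7 of the 10 members were searched, and those of Ereg, Hbegf and Erbb3 were not, so nothing is said of them. The window of Areg lies at chr5:91139349-91139598 on the plus strand, that of Epgn at chr5:91027267-91027516 on the plus strand and that of Btc at chr5:91402995-91403244 on the minus strand. Each is written 5′ to 3′ in the direction of the gene. Capitals mark TGACG, a partial cAMP response element (CRE), on either strand, and TATAAA, the letters of a TATA box.
Areg: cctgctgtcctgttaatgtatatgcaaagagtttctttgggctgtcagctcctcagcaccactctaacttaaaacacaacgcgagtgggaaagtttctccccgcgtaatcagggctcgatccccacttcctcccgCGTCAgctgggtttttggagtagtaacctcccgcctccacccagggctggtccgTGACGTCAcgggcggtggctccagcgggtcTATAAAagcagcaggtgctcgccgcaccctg
Epgn: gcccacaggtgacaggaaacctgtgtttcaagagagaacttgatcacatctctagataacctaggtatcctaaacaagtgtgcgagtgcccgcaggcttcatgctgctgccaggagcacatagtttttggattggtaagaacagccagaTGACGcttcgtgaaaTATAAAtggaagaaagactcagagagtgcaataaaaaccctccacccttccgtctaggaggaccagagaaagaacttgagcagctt
Btc: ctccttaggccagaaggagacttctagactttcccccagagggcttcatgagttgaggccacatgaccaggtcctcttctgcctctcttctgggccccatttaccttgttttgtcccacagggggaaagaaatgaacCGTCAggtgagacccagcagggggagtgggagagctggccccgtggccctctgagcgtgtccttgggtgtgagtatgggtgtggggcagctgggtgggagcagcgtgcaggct

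In the Areg window a whole CRE, TGACGTCA, began 61 bases before the start and a TATAAA began 31 bases before it. The whole CRE holds 2 of the 3 copies of TGACG in this window, the other lying 115 bases before the start. TGACGTCA was found in 1.55% of the 32851 promoters of the table in windows of the same length, TGACG in 17.8% and TATAAA in 12.4%. None of the other 7 member windows, which include 2 for Egf, held TGACGTCA. The Epgn window held 1 TGACG and 1 TATAAA, which began 86 bases before the start, and the Btc window held 1 TGACG. The core letters of SOX sites, ACAAT, stood in 27.7% of all promoters and in none of the 8 member windows. The other motifs searched on both strands were AGATAA for GATA factors (9.99% of promoters), TGTTTAC for forkhead factors (3.17%), TGANTCA for AP-1 (6.75%), AGGTCA as part of an oestrogen response element (14.0%), TGTNCT as part of a progesterone response element (44.7%) and GGGCGG for SP1 (32.7%). Of these the Areg window held 1 TGTNCT and 1 GGGCGG. A match of letters is a description of the window, and the lack of one says only that the letters are not in these 250 bases.

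Of the 6 members that could be tested, Areg changed between the genotypes and the other 5 did not pass the test. Its signal was high in every Sox17f/f uterus and at background in every Sox17ed/ed uterus. The tested members were Areg, Hbegf, Egf, Epgn, Egfr and Erbb2, and 1 of 6 passed an adjusted p of 0.05 (limma). For comparison, 18.9% of the 14846 genes tested passed it, 8.84% higher and 10.1% lower in Sox17ed/ed. By the thresholds in the study's methods, an unadjusted p under 0.01 with a fold change of at least 1.4, 1 of the 6 members and 12.5% of all genes passed. The 2 genotypes did not overlap for 3 of the 6 members, against 40.6% of all genes. The share called among the members, 16.7%, is close to that of all genes and is not a result about the family.

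**Figure D1:**
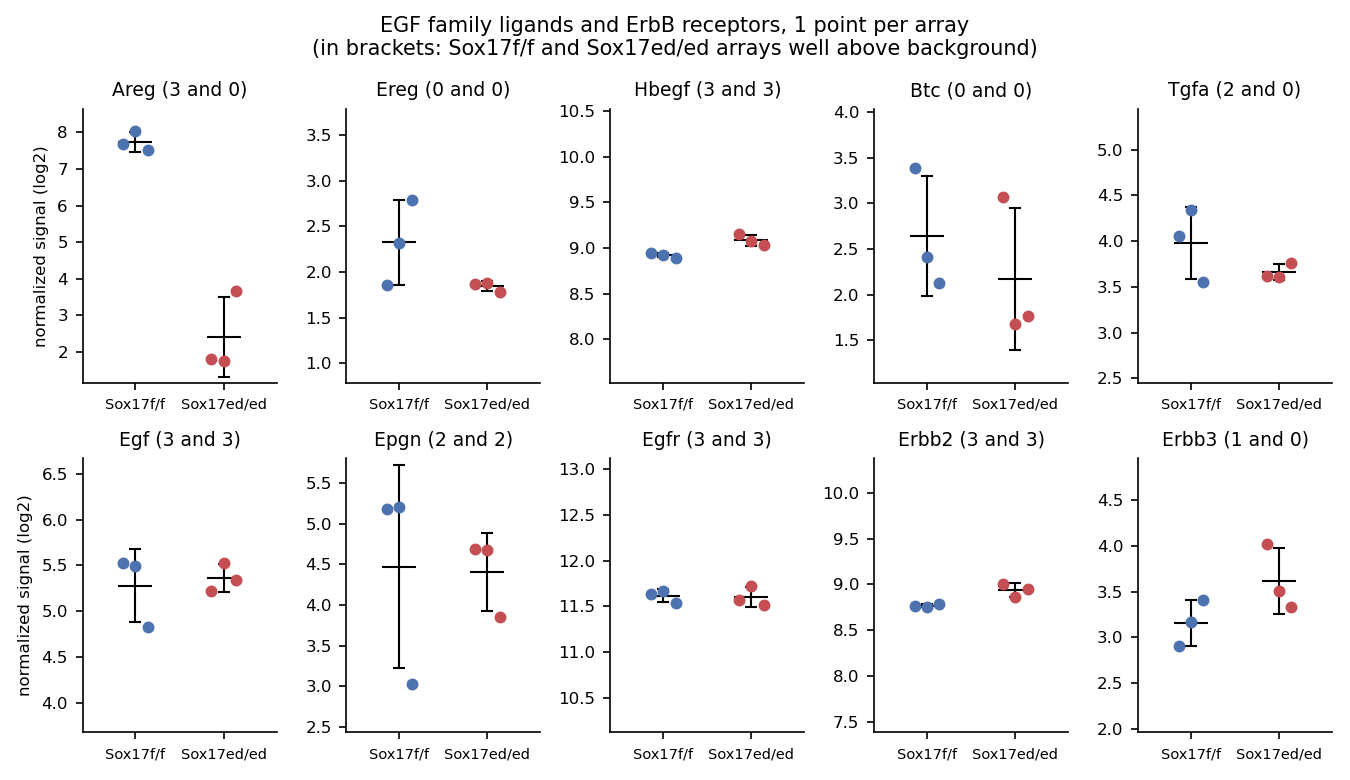
Normalized log2 signal of the brightest probe of each member, 1 point per array, with the mean and SD of the 3 arrays of each genotype. Blue points are Sox17f/f and red points Sox17ed/ed, and each panel has its own range of at least 3 log2 units. The Areg groups lie over 3 log2 units apart, whereas the groups of the other members overlap or lie close together.

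Areg, the gene of amphiregulin, measured 7.69, 8.04 and 7.50 in the 3 Sox17f/f samples. In the Sox17ed/ed samples it measured 1.82, 1.75 and 3.68. Every Sox17f/f sample lay well above background and no Sox17ed/ed sample did, so the groups were widely separated. Areg thus passed the detection filter through its Sox17f/f samples, and its p is read with that in view. The means were 7.74 ± 0.27 and 2.42 ± 1.09 (SD, n = 3), a log2 fold change of -5.33 with an SE of 0.52 and a 95% interval from -6.60 to -4.06 (limma adjusted p = 0.00124; exact two-sided permutation test, p = 0.1, the smallest that 3 samples against 3 can give). Since the Sox17ed/ed values lie at background, the fall is best given as a bound. Areg was at least 11.5-fold lower in Sox17ed/ed, taking for each Sox17ed/ed array the higher of the probe's own signal and the lowest signal marked well above background. With normexp background correction, which lifts values near background, the log2 fold change was -2.24 (limma adjusted p = 2.57e-07).

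The arrays read whole uteri, in which fewer cells of a type and less RNA per cell cannot be told apart. Beside the fall of Areg, 4 of 6 markers of uterine epithelium passed as higher and none as lower. Krt19 was higher by 2.10 (limma adjusted p = 0.000222) and Cdh1 by 0.59 (limma adjusted p = 0.0127). Krt18 went the other way, differing by -0.16 with every Sox17ed/ed sample below every Sox17f/f sample, and did not pass (limma adjusted p = 0.214). The summed linear signal of the 6 markers ran from 35515 to 37887 in Sox17f/f and from 45625 to 57102 in Sox17ed/ed, a sum that Krt18 and Krt19 dominate and that is no measure of cell number. All 5 markers of uterine glands fell, their summed signal running from 33625 to 53704 in Sox17f/f and from 121 to 195 in Sox17ed/ed. The study counted glands at the same gestation day. It reported fewer in uteri with Sox17 deleted by Pgr-Cre than in Sox17ed/ed or Sox17f/f uteri. Foxa2, a transcription factor of the glands, was lower by 4.51 on the log2 scale by its brighter probe, which was detected on all 3 Sox17ed/ed arrays. Its other probe was detected on no Sox17ed/ed array and was at least 12.9-fold lower, and neither probe of Prss29 was detected there. After adjustment, markers of smooth muscle fell in 2 of 6 cases and those of endothelium in 3 of 5, 1 of 6 stromal markers rose and 1 fell, and 0 of 4 tested leukocyte markers passed in limma. Of all genes 18.9% passed. At an unadjusted limma p under 0.05 the counts were 5 of 6 for smooth muscle, 5 of 6 for stroma, 3 of 5 for endothelium and 0 for leukocytes. The share of all genes at this unadjusted p was not counted and is at least 18.9%. These counts are therefore no result about cell types. All 6 smooth muscle markers were lower. Of the stromal ones at this p, Hand2, Pdgfra, Hoxa10 and Hoxa11 were higher and Dcn was lower. Hand2 differed by 0.32 and did not pass after adjustment (limma adjusted p = 0.129). The study instead reported less HAND2 protein in Sox17ed/ed stroma, and a similar pattern for its mRNA by qRT-PCR. The reason for the unlike direction was not tested. None of the 5 proliferation markers passed. By the probes used all 5 were higher in Sox17ed/ed without overlap (40.6% of all genes did not overlap). Their median log2 fold change was 0.47. Each had an unadjusted limma p under 0.05, again with no share of all genes to compare. Other probes of Mki67 (0.47), Ccnb1 (0.30) and Cdk1 (-0.18) had overlapping groups. A further probe of Ccnb1 (0.49) and an undetected probe of Cdk1 (0.43) did not overlap. Of the 3 squamous markers, Krt5 rose by the probe used (at least 5.25-fold), while its other probe differed by -0.75 with overlapping groups. The brighter probe of Trp63 differed by -0.12, but its other probe was detected on 0 Sox17f/f and 3 Sox17ed/ed arrays and was at least 18.1-fold higher in Sox17ed/ed. The part of any of these in the Areg result was not tested.

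Hbegf, the gene of heparin-binding EGF-like growth factor, measured 8.94, 8.93 and 8.89 in Sox17f/f. In Sox17ed/ed it measured 9.15, 9.07 and 9.03. The Sox17ed/ed samples were all slightly higher, and the groups did not overlap. The difference of 0.17 (SE 0.06, 95% interval 0.01 to 0.32) was 1.12-fold and did not pass after adjustment (limma adjusted p = 0.126; exact two-sided permutation test, p = 0.1).

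Egf, the gene of the founding ligand, is read at 10 spots of each array. Its array means were 5.52, 5.49 and 4.82 in Sox17f/f, and 5.22, 5.52 and 5.34 in Sox17ed/ed. Sox17f/f sample 3 was low, and the other 5 samples overlapped. The difference was 0.08 (SE 0.20, 95% interval -0.41 to 0.58, limma adjusted p = 0.820), and it turned to -0.15 without Sox17f/f sample 3. All 27 usable Egf spots in Sox17f/f and all 28 in Sox17ed/ed were well above background.

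Epgn, the gene of epigen, measured 5.18, 5.21 and 3.03 in Sox17f/f and 4.69, 4.68 and 3.86 in Sox17ed/ed. In each genotype 1 sample lay below the others and below the detection call, and the groups overlapped. The difference was -0.06, but its 95% interval, -1.57 to 1.45, leaves room for a change of more than 2-fold either way (limma adjusted p = 0.956). Without 1 sample the value ran from -0.78, without Sox17f/f sample 3, to 0.30, without Sox17f/f sample 2.

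Tgfa, the gene of transforming growth factor alpha, was not tested because it was detected on 2 arrays only, those of Sox17f/f samples 2 and 3. Its means over up to 10 spots were 4.05, 4.34 and 3.56 in Sox17f/f, and 3.62, 3.60 and 3.76 in Sox17ed/ed. Sox17f/f samples 1 and 2 were the highest of the 6 and sample 3 was the lowest, so the groups overlapped (difference -0.32, exact two-sided permutation test, p = 0.4). Of the usable Tgfa spots, 17 of 27 in Sox17f/f and 0 of 29 in Sox17ed/ed were well above background. Spots of 1 array are repeats of 1 sample, so this count carries no test between the genotypes.

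Ereg and Btc, the genes of epiregulin and betacellulin, which both bind EGFR and ErbB4, were not detected on any array. Ereg measured 1.86, 2.32 and 2.79 in Sox17f/f and 1.87, 1.88 and 1.78 in Sox17ed/ed. Btc measured 3.39, 2.41 and 2.13 in Sox17f/f and 3.07, 1.68 and 1.77 in Sox17ed/ed. Both genes overlapped between the genotypes at background, where no fold can be given (exact two-sided permutation tests, p = 0.3 for Ereg and p = 0.5 for Btc).

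Of the 5 tested genes in this stretch of chromosome 5, Areg was the one that fell. Mthfd2l, a mitochondrial folate enzyme gene next to Epgn, changed by -0.05 (limma adjusted p = 0.768), and Epgn by the -0.06 given above. On the other side, past Btc, Parm1 rose by 0.71 (limma adjusted p = 0.00732), with 10.64, 10.33 and 10.67 in Sox17f/f against 11.36, 11.24 and 11.19 in Sox17ed/ed. Rchy1, a ubiquitin ligase gene that follows Parm1, changed by 0.06 (limma adjusted p = 0.554). Cxcl1, Cxcl2, Ereg, Btc and Odaph were detected on too few arrays to be tested, so what they show is limited. Among them Cxcl1, a neutrophil chemokine gene, measured 3.79, 4.92 and 2.83 in Sox17f/f, where 1 array was detected, and 1.78, 1.77 and 1.98 in Sox17ed/ed, where none was. Its Sox17ed/ed values all lay below those of Sox17f/f, and it was not tested.

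**Figure D2:**
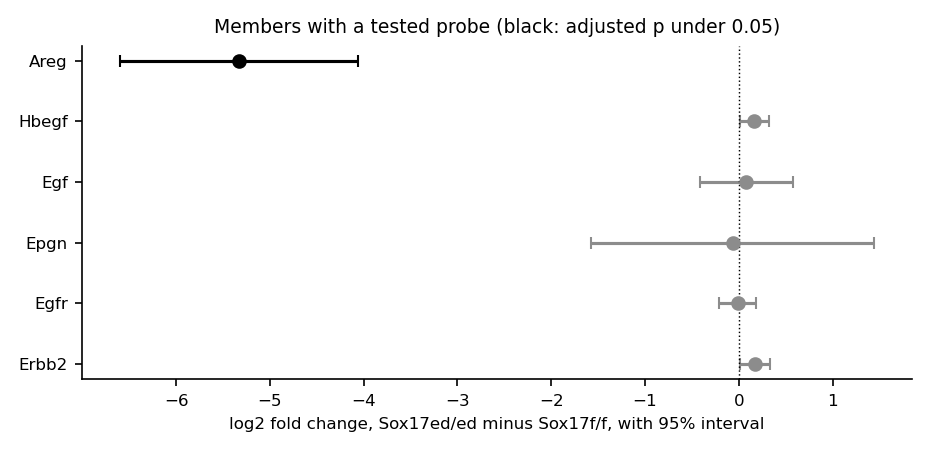
Log2 fold change of each tested member, Sox17ed/ed minus Sox17f/f, with its 95% interval from limma. Areg lies at -5.33 and its interval stays below 0, those of Hbegf and Erbb2 begin just above 0, and the interval of Epgn is the widest.

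Among the receptors, Egfr, the common receptor of these ligands, was bright on every array. Its main probe measured 11.64, 11.67 and 11.53 in Sox17f/f, and 11.57, 11.73 and 11.52 in Sox17ed/ed. The samples of the 2 genotypes were mixed. The difference was -0.01 (SE 0.08, limma adjusted p = 0.937), and its 95% interval from -0.21 to 0.19 corresponds to folds between 0.864 and 1.14. The other Egfr probes, assigned to another RefSeq transcript of the gene, differed by 0.03 and -0.06 with overlapping groups.

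Erbb2, the receptor that binds no ligand and pairs with the others, measured 8.76, 8.76 and 8.79 in Sox17f/f. In Sox17ed/ed it measured 9.01, 8.86 and 8.95. All Sox17ed/ed samples were slightly higher and the groups did not overlap. The difference of 0.17 (SE 0.07, 95% interval 0.01 to 0.33) did not pass after adjustment (limma adjusted p = 0.132; exact two-sided permutation test, p = 0.1).

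Erbb3, a neuregulin receptor with little kinase activity of its own, was detected on 1 array and not tested. It measured 2.90, 3.17 and 3.40 in Sox17f/f and 4.02, 3.51 and 3.33 in Sox17ed/ed. The array with the detection call was in Sox17f/f, although the higher values lay in Sox17ed/ed, and the groups overlapped (difference 0.46, exact two-sided permutation test, p = 0.2).

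**Figure D3:**
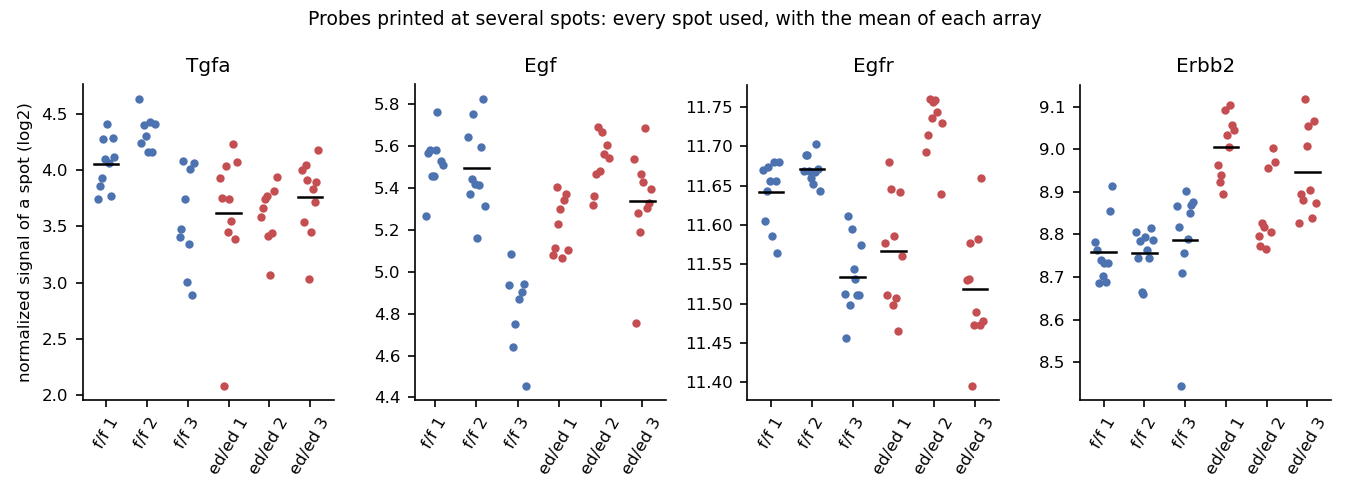
Normalized log2 signal of every usable spot of the 4 members printed at 10 spots per array, in blue for Sox17f/f and red for Sox17ed/ed, with a separate axis for each gene. A line marks the mean of an array only where none of its spots was left out. The Egf spots are low in Sox17f/f sample 3, and the Egfr arrays of both genotypes are mixed. The Erbb2 lines of Sox17ed/ed samples 1 and 3 lie above those of Sox17f/f, and sample 2 has no line.

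The genes that make, carry and restrain the ErbB signal were read from 5 lists set by their known roles, 58 genes of which 54 were tested. Of these, 15 changed (27.8%, against 18.9% of all genes), 4 higher and 11 lower in Sox17ed/ed, where all genes gave 8.84% and 10.1%. Their median log2 fold change was -0.02, against -0.0016 over all genes tested. The 2 genotypes did not overlap for 27 of the 54, against 40.6% of all genes. The lists were chosen with earlier results of these data known, so their shares are descriptions and carry no test. Where a gene below had an absolute log2 fold change of at least 1, or the smallest p of its list, it was named by rule, and the other genes that passed were picked after their values had been seen. With the sample number as a block, 10 of the 54 passed, beside 1856 of the 14846 genes tested.

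In the list of neuregulins and the fourth receptor, 2 of 3 tested genes passed (66.7%, against 18.9% of all genes). These ligands of ErbB3 and ErbB4 moved in opposite directions. Nrg2 rose from 7.52, 7.38 and 7.59 in Sox17f/f to 8.03, 7.93 and 8.14 in Sox17ed/ed (log2 fold change 0.54, limma adjusted p = 0.00985). The dimmer Nrg2 probe, detected on 2 Sox17f/f and 3 Sox17ed/ed arrays, differed by 0.56 with overlapping groups. Nrg4 fell by 0.92 on the log2 scale (limma adjusted p = 0.0257), from 7.44, 7.20 and 7.36 to 6.15 and 6.69, with Sox17ed/ed sample 2 left out because its spot was an outlier. Its other probe, read on all 6 arrays, differed by -1.35. Nrg1 differed by 0.36 and did not pass (limma adjusted p = 0.0945), and Nrg3 and Erbb4 were not detected on enough arrays.

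In the list of ligand shedding, 2 of 9 genes rose and none fell. This share, 22.2%, is near the 18.9% of all genes and is not a result about the list. Adam8, a membrane metalloprotease, rose from 9.88, 10.21 and 9.79 to 10.67, 10.76 and 10.87 (log2 fold change 0.80, limma adjusted p = 0.00770). Adam12, a metalloprotease able to cut HB-EGF, rose by 0.34 (limma adjusted p = 0.0192), although 1 of its 3 probes differed by 0.12 with overlapping groups. Adam17, which releases amphiregulin, differed by -0.05 (95% interval -0.47 to 0.36) and did not pass.

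Of the 18 signal transducers, from adaptors through RAS and RAF to MAP kinases and AKT, 2 fell and none rose. This share, 11.1%, is below the 18.9% of all genes. Braf, a kinase that passes the RAS signal on, fell from 10.12, 10.10 and 10.13 to 9.77, 9.73 and 9.78 (log2 fold change -0.36, limma adjusted p = 0.00842). Sos1, which loads RAS with GTP, fell by 0.49 on the log2 scale (limma adjusted p = 0.0384). The log2 fold changes of all 18 lay between -0.49 and 0.22.

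Of 14 tested feedback inhibitors, 3 fell and none rose. This share, 21.4%, is near the 18.9% of all genes and is not a result about the list. Dusp4, a phosphatase that switches off MAP kinases, fell from 6.69, 6.63 and 5.96 to 5.08, 5.01 and 4.75 (log2 fold change -1.48, SE 0.21, limma adjusted p = 0.00545). Errfi1, whose product MIG6 binds and inhibits EGFR, fell by 0.50 on the log2 scale (limma adjusted p = 0.0142). Ptpn1, a tyrosine phosphatase, fell by 0.40 (limma adjusted p = 0.0388). Spry4 and Dusp5 were detected on 1 array each and were not tested.

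Of 10 genes known to respond to MAP kinase signalling, 5 fell and 1 rose (60%, against 18.9% of all genes), with a median log2 fold change of -0.85. This list too was chosen with earlier results of these data known, so the share is a description and no test of enrichment. Ier3, an immediate early gene, fell from 10.59, 10.61 and 10.02 to 8.17, 8.03 and 8.12 (log2 fold change -2.30, limma adjusted p = 0.000374). The study also lists Ier3, with Foxa2 and Prss29, as specific to the glandular epithelium. Fos, a subunit of AP-1, fell from 9.26, 9.40 and 9.61 to 7.10, 7.50 and 7.37 (log2 fold change -2.09, limma adjusted p = 0.000234). Maff, a small MAF transcription factor, fell from 7.91, 7.97 and 7.88 to 6.02, 6.47 and 6.21 (log2 fold change -1.68, limma adjusted p = 0.000335). In these 3 genes every Sox17ed/ed sample lay below every Sox17f/f sample. Etv5, an ETS factor, fell by 0.87 (limma adjusted p = 0.00385) and Egr1, a zinc finger factor, by 0.83 (limma adjusted p = 0.00192). Ccnd1, the gene of cyclin D1, rose by 0.41 (limma adjusted p = 0.0112). Fosl1 was detected in Sox17f/f only, at a bound of at least 1.43-fold lower in Sox17ed/ed, and did not pass (limma adjusted p = 0.0817). These genes also answer to signals other than the EGF family, and the part of the marker changes given above in their differences was not tested.

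**Figure D4:**
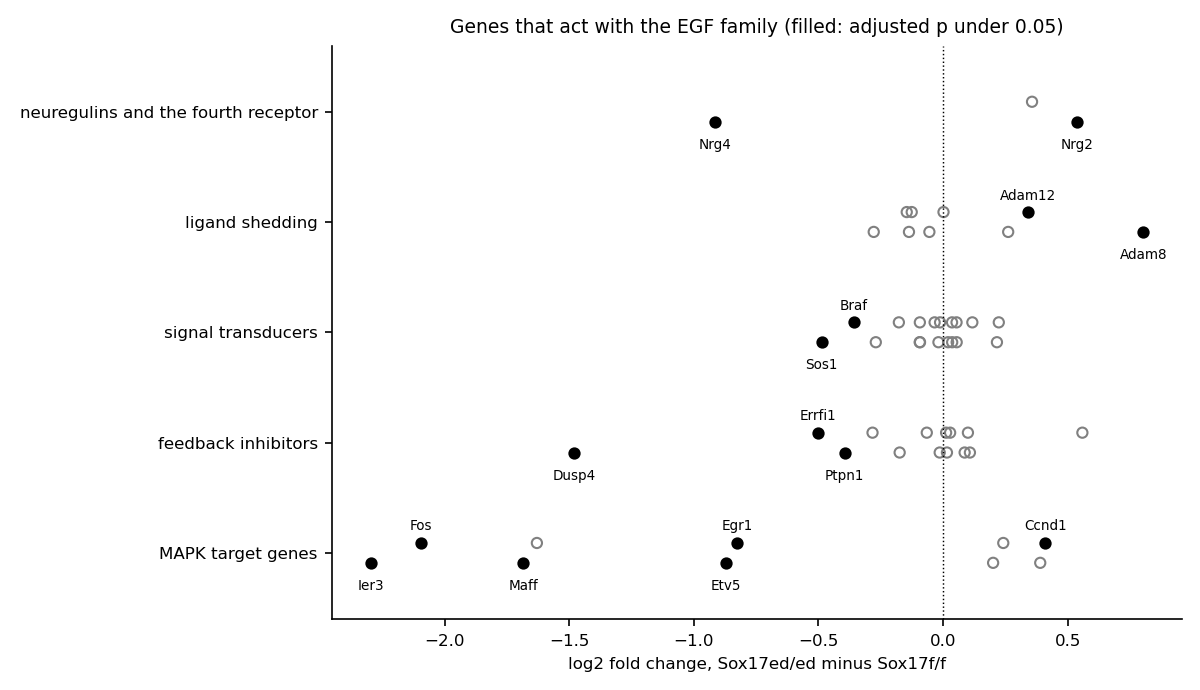
Log2 fold change, Sox17ed/ed minus Sox17f/f, of each tested gene in the 5 lists, 1 point per gene, with the small vertical shift of the points carrying no value. Filled and named points passed an adjusted p of 0.05, and the 5 MAPK target genes that fell lie between -2.30 and -0.83.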

How the data were processed

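For each array the authors deposited its scanner output, from an Agilent G3 Mouse GE array read in 1 colour, and a table of processed values. The deposited spot intensity used is the processed signal, corrected by the scanner software for background and for trends within an array, and not normalized between arrays. The file headers name Feature Extraction 11.0.1.1, whereas the submitters' processing notes name version 9.1. The deposited table lay within 0.191% of the mean processed signal of each probe, so it is on the same linear scale with no centring between arrays, and its array medians ran from 34.9 to 44.9. The study's methods name Bioconductor with quantile normalization.

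Log2 processed signals were quantile normalized between the 6 arrays, and spots of a probe were averaged. Control spots and the 169 to 302 outlier spots per array were left out. The brightest probe detected on at least 3 arrays stood for a gene, and a probe was detected on an array when most of its usable spots were well above background. Of 55681 probes, 26582 were matched by accession to 20145 gene symbols. Genotypes were compared with limma 3.58.1 (lmFit and eBayes, no covariates) run under R 4.3.3, and p-values were adjusted by Benjamini-Hochberg across the 14846 genes tested. Python 3.11.15 was used for the rest, and the steps were tested on simulated data. A bound was set for a probe detected on no array of a genotype. Normexp with an offset of 50 was run on median spot signals in place of mean signals.

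The members, lists and tests were chosen with earlier results of these data known. Named by rule were all members, Sox17, the list genes with adjusted p under 0.05 and an absolute log2 fold change of at least 1 (otherwise the smallest p of a list), and 3 neighbours on each side of the chromosome 5 genes. The array is annotated on mm9, so the gene table of GRCm38.p6 gave only names and order, and promoter coordinates are its own. With 3 arrays per genotype, the number of arrays limits the precision.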

Additional observations from a re-analysis of the deposited data

How the results depend on the processing

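Areg stayed lower with an adjusted p under 0.05 in the alternatives in which it was tested, though it passed the detection filter through Sox17f/f alone and its fold is against a group not above background. Its log2 fold change ran from -5.96 to -4.99 when 1 array was left out, and was -5.22 with scaling by the 75th percentile and -2.24 with normexp. When probes had to be well above background on all 6 arrays, Areg could not be tested and 0 members passed, in place of 1. Sox17 kept its fall in every alternative, between -2.50 and -2.39 with 1 array left out. Values near 0 changed sign: leaving out 1 array gave -0.15 to 0.20 for Egf, -0.78 to 0.30 for Epgn and -0.073 to 0.031 for Egfr, and the probe of another Egfr transcript gave 0.032. Erbb3, at background, differed by 0.07 with normexp. The cause of these shifts was not tested. Same-numbered samples did not deviate together (correlations 0.063, -0.11 and -0.00026). With the number as a replicate block, Areg had an adjusted p of 0.00882 and 1 member passed, while the genes passing went from 2808 to 1856. With 1 array left out, genes passing ran from 1653 without Sox17f/f sample 1 to 2656 without Sox17f/f sample 3, and came to 1811 without Sox17ed/ed sample 1. Between 12 and 14 pathway genes passed with 1 array left out, in place of 15. No alternative moved the median of all genes beyond -0.021. Where both genotypes lie at background, as for Ereg and Btc, the arrays cannot show a difference.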
